A study of Mus musculus with 75 samples.

Results

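The age difference was examined in the choroid plexus of isochronic parabionts, mice whose circulation had been joined surgically to that of a partner of the same age. All 3 old isochronic libraries (animals 19, 21 and 23) and all 3 young isochronic libraries (animals 1, 3 and 5) were taken by their labels, 6 of the 75 samples of the series. The mice were C57BL/6, 22 months old in the old group and 3 months old in the young group, and were perfused with PBS before the tissue was frozen. No genotype or agent differed between the groups, which shared the surgery and the joined circulation. The same table holds 3 young and 2 old heterochronic libraries, from mice whose partner was of the opposite age, and a second table holds choroid plexus of 3 aged and 3 young unjoined mice of the same ages. Whether the 3 libraries of a group came from different pairs is not given in the labels, so p-values measure the spread between these samples.

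The choroid plexus is an epithelium folded around fenestrated vessels in the brain ventricles, and it secretes the cerebrospinal fluid and forms a barrier between that fluid and the blood. Type I interferon signals through a cell surface receptor, the kinases bound to it and a transcription factor complex that includes Irf9 and binds interferon-stimulated response elements in the promoters of antiviral genes. The products include sensors of viral RNA, inhibitors of viral replication and entry, the ubiquitin-like protein Isg15, and Usp18, which damps the receptor. Isochronic pairs carry the operation and the shared blood without an age gap between partners, and serve as the reference for heterochronic pairs.

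Each value is the authors' signal per transcript, whose counting and scaling are not given. Judged from the values, most were whole multiples of 1 step per library. This step was taken as the value of 1 read, and was 0.783 to 1.03 in these 6 libraries. Depth, summed over 1 transcript per gene, was 745638 to 990827 reads per library, and 14992 to 15378 genes were above 0. Choroid plexus epithelium markers were high in every library, with Ttr (transthyretin) at 777 to 965, Kl at 426 to 506 and Folr1 at 319 to 398, and the summed level of the 12 markers was 4404 to 4801 in old and 4260 to 5074 in young mice. No gene exceeded 993 reads, and the table compressed high values: genes with a median of 1440 in unjoined choroid plexus had a median of 366 in parabionts. Changes of highly expressed genes are therefore understated here, and genes in the middle of the range carry most of the information. The neuron markers summed to 65.6 to 77.2 in old and 75.9 to 153 in young libraries, of which young 1 was highest. The transcripts of Ddx3y, a Y-linked gene, were at 157 to 180 in all 6.

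Old isochronic choroid plexus differed from young in few genes, and the higher ones were led by interferon-inducible genes. Of 12991 genes tested with limma on log2(value + 1), 20 were higher in old mice (0.154%) and 5 were lower (0.0385%) at a Benjamini-Hochberg adjusted p under 0.05. At an unadjusted p under 0.05 there were 649 genes, 5.00% of those tested. The median log2 change of all genes was 0.00, and 50.7% lay above 0. The spread in this fit is shared with the 5 heterochronic libraries, and 2 of those, young 14 and old 34, lay farthest from the rest on the first components of the libraries. Without both of them 46 genes were called (0.357% of 12882), 34 higher and 12 lower, and with the 6 isochronic libraries alone 44 genes (0.348% of 12632). All 25 genes were called in both of those fits.

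**Figure D1:**
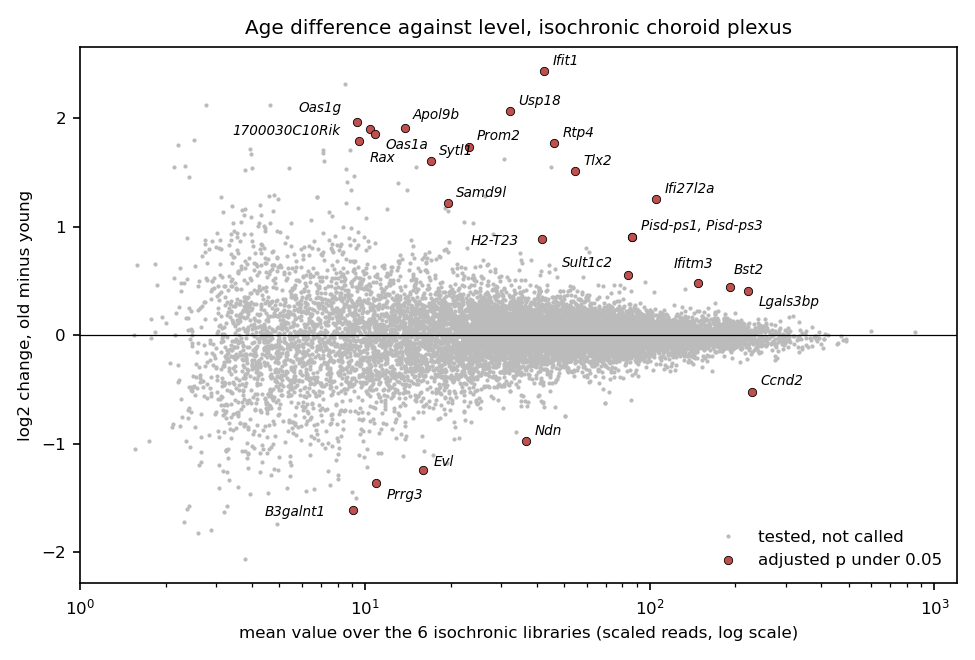
The log2 change from young to old isochronic choroid plexus (vertical axis) is plotted against the mean value over the 6 libraries on a log axis, with 1 grey point per gene tested and red points for the 25 genes called. The called genes lie between means of 9.03 (B3galnt1) and 229 (Ccnd2), 20 above 0 and 5 below.

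Leaving out 1 isochronic library gave 12 calls without young 1, 12 without young 3, 17 without young 5, 10 without old 19, 11 without old 21 and 9 without old 23. Called in all 6 of these fits were Usp18, Ifit1, Ifi27l2a, Tlx2, Prom2 and the pair Pisd-ps1 and Pisd-ps3. Ccnd2 was lost only without old 23, Rtp4 only without young 3 and Sytl1 only without old 19. Bst2, Ifitm3, Lgals3bp, Samd9l, Apol9b, Oas1a, Oas1g, H2-T23, Rax and Ndn were called in 1 of the 6, and 1700030C10Rik, Sult1c2, Evl, Prrg3 and B3galnt1 in 0 of the 6. Every one of the 25 kept its sign in all 6.

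The 20 higher genes include 9 of the 30 tested members of the type I interferon response list, and Oas1g, Apol9b and H2-T23, which are also known as interferon-inducible. To show the motif where it occurs, 5 promoters that hold it are printed here, with the capitals marking every match to GAAANNGAAA on either strand, the core of the interferon-stimulated response element, where a match on the opposite strand reads as TTTC blocks. Each run gives the 150 bases before the transcription start, 5′ to 3′ on the gene's strand, from RefSeq on GRCm38.p6: Ifit1 at chr19:34640739-34640888 on the + strand, Oas1a at chr5:120907526-120907675 on the - strand, Bst2 at chr8:71537473-71537622 on the - strand, Apol9b at chr15:77728922-77729071 on the + strand (the first of its 2 starts) and H2-T23 at chr17:36032702-36032851 on the - strand.
Ifit1: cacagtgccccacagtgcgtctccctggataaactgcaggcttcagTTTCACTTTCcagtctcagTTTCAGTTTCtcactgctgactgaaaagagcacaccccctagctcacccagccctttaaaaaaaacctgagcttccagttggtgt
Oas1a: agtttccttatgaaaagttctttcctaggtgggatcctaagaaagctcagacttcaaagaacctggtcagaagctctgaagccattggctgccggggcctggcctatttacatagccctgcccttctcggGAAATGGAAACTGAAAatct
Bst2: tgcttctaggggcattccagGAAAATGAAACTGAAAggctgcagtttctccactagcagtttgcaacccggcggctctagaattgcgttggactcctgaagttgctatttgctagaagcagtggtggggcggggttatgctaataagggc
Apol9b: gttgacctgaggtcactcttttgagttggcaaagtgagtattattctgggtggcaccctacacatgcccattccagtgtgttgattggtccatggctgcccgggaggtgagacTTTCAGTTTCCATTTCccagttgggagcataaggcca
H2-T23: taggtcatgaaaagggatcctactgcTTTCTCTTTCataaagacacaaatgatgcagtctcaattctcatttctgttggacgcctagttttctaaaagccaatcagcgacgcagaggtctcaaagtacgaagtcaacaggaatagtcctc

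In the first 4 of these promoters the motif stands as 2 copies, overlapping in Oas1a, Bst2 and Apol9b and separate in Ifit1, and H2-T23 holds 1 copy. The nearest copy to the start begins 14 bases before it in Oas1a, 31 in Apol9b, 85 in Ifit1 and 124 in Bst2 and H2-T23. Of the 20 higher genes 13 had a promoter in the RefSeq table, and 6 of these (46.2%) held the motif within 250 bases before the start: the 5 printed and Oas1g, a near copy of Oas1a. Of the 6 called genes of the interferon list with a window 3 held it, and Ifitm3, Samd9l and Lgals3bp did not. Among all 10277 tested genes with a promoter 318 (3.1%) held it, and of 32851 windows of the same length 3.0%. None of the 4 lower genes with a window did (0 of 4). A match is a description of these letters and not a measured binding site.

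The largest change among the called genes was in an effector of the antiviral response. Ifit1, which binds foreign RNA that lacks the host's cap methylation, was at 87.3, 60.2 and 67.9 in old mice 19, 21 and 23, and at 7.37, 11.8 and 21.0 in young mice 1, 3 and 5. The lowest old library lay far above the highest young one, and the ratio of the means was 5.36. The log2 change was 2.43 ± 0.30 (SE), adjusted p = 0.000145. Oas1a, an oligoadenylate synthetase that activates RNase L, was at 17.3, 17.5 and 17.3 in old and 3.61, 2.74 and 6.60 in young mice, without overlap, a change of 1.85 ± 0.40 (adjusted p = 0.0422). Oas1g, its near copy, stood at 14.1 to 16.4 in old and 1.96 to 5.78 in young mice, and reads of the copies may be divided between them.

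Interferon-inducible membrane proteins that restrict virus entry and release were already abundant in young tissue and also rose. Ifitm3, which blocks virus fusion in endosomes, was at 165, 171 and 183 in old against 117, 137 and 116 in young libraries. Bst2 (tetherin), which holds budding virions at the cell surface, was at 237, 211 and 214 against 162, 173 and 149. Both separated the groups in all 6 libraries. The changes were 0.49 ± 0.09 for Ifitm3 (adjusted p = 0.0135) and 0.45 ± 0.10 for Bst2 (adjusted p = 0.0349). Lgals3bp, a secreted galectin-binding glycoprotein, was at 237 to 261 in old and 177 to 215 in young mice, a change of 0.41 ± 0.09 (adjusted p = 0.0448). These 3 genes lie where the table compresses values.

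A regulator of the pathway was higher as well. Usp18, the protease that removes Isg15 from proteins and damps interferon receptor signalling, had the smallest adjusted p of the comparison. It stood at 58.7, 50.3 and 49.1 in old and at 12.4, 9.39 and 14.0 in young libraries, with a wide gap between the groups. Its change was 2.07 ± 0.25 (adjusted p = 2.9e-05), and the ratio of means 4.41. Isg15 itself was at 47.7, 42.2 and 50.4 against 17.5, 13.7 and 12.5. Irf7, the factor that amplifies interferon production, was at 66.3, 69.9 and 64.5 against 20.6, 17.2 and 30.5. Neither overlapped between the groups, yet neither passed the test: the changes were 1.63 ± 0.34 for Isg15 (adjusted p = 0.0612) and 1.55 ± 0.35 for Irf7 (adjusted p = 0.246). The old heterochronic libraries, which share the spread, were far apart for both, with Isg15 at 70.4 and 17.0 and Irf7 at 91.1 and 28.1. Without the 2 heterochronic libraries that stand apart, the adjusted p was 1.7e-06 for Isg15 and 8.64e-07 for Irf7. Ifnb1, which codes for interferon beta, was not analysed here.

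Other interferon-inducible genes rose over the same libraries. Rtp4, a chaperone of receptors at the cell surface, was at 93.3, 57.1 and 66.3 in old against 21.7, 17.2 and 21.5 in young mice (change 1.77 ± 0.27, adjusted p = 0.0029). Ifi27l2a, an interferon-inducible membrane protein, was at 151, 142 and 152 against 66.0, 54.8 and 64.4 (change 1.26 ± 0.15, adjusted p = 0.000123). Samd9l, which restricts translation and growth, was at 25.0, 30.7 and 27.3 against 11.3, 10.2 and 12.4 (change 1.22 ± 0.24, adjusted p = 0.0194). In all 3 the lowest old library stood above the highest young one. Apol9b, of the apolipoprotein L family, was at 19.1 to 27.9 in old and 4.31 to 6.60 in young mice, a change of 1.91 ± 0.36 (adjusted p = 0.0102).

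**Figure D2:**
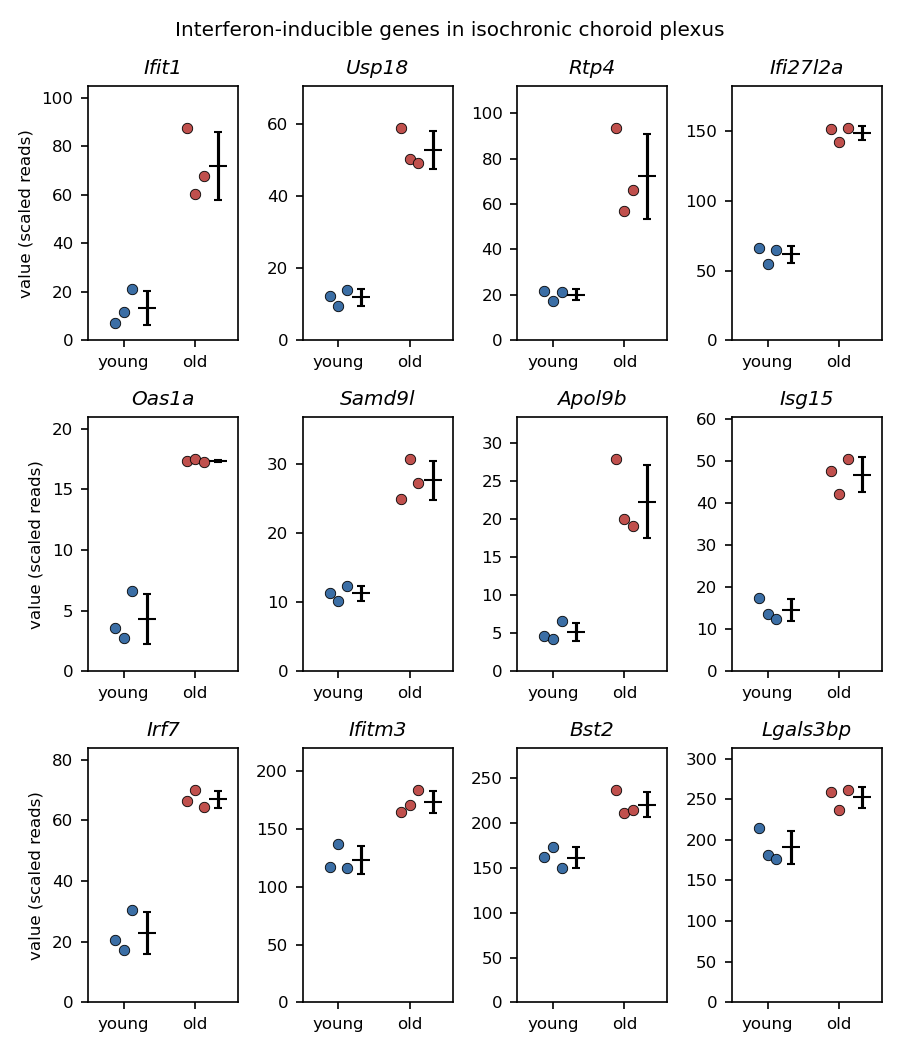
Values (scaled reads, linear axis from 0) of 12 interferon-inducible genes are shown with 1 point per library, blue for the 3 young and red for the 3 old isochronic mice, and black bars for the mean ± SD. The groups do not overlap in any panel. Isg15 and Irf7 did not pass the test in the fit of 11 libraries.

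Over the whole type I interferon list, 33 of 36 members were in the table and 30 were tested. All 30 had a log2 change above 0, with a median of 0.98 against 0.00 over all genes, and 25 had every old library above every young one, against 5.70% of all genes tested. The 9 called members are to be read against the 0.154% of all genes called higher. In the fit without the 2 heterochronic libraries that stand apart, 16 of the 30 were called. The median was 0.82 to 1.00 with each isochronic library left out, where 29 or 30 members stayed above 0, 0.96 to 1.00 with other scalings and weights, 0.79 with a pseudocount of 4 and 1.17 over the 29 members tested with the 6 isochronic libraries alone. The genes were chosen from what is known of the pathway, with earlier results of these data known.

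Signalling members and sensors of the list described here did not pass the test with 11 libraries. Among genes chosen here after their values were seen, Stat2 was at 42.6 to 44.5 in old against 22.7 to 33.8 in young mice (change 0.66, adjusted p = 0.238). Irf9 overlapped between the groups, at 52.0 to 72.5 against 38.2 to 54.5. The RNA sensor Ifih1 was at 41.8 to 47.7 in old and 22.7 to 27.4 in young mice (change 0.76, adjusted p = 0.233), and Trim30a at 22.2 to 33.7 against 8.25 to 13.3 (change 1.18, adjusted p = 0.0763). Stat2, Ifih1 and Trim30a separated the groups, whereas Irf9 did not. Without the 2 heterochronic libraries that stand apart, Ifih1 (adjusted p = 0.0476) and Trim30a (adjusted p = 0.0255) were called.

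Interferon gamma induces a family of GTPases that attack the vacuoles of intracellular pathogens. Of 11 such genes and regulators tested, 8 had a change above 0 and 0 passed the test, with a median of 0.43, and 6 had every old library above every young one, against 5.70% of all genes. Irgm2 was at 51.0, 34.9 and 46.3 in old against 28.9, 25.1 and 25.6 in young mice (change 0.70 ± 0.19, adjusted p = 0.215). Gbp3 was at 26.9, 22.2 and 31.8 against 9.28, 9.39 and 17.3 (change 1.15, adjusted p = 0.246). Tgtp1 and Irgm1 changed by 0.33 and 0.45 on the log2 scale and separated the groups without passing.

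Class I antigen presentation showed 1 called gene. H2-T23, which codes for the nonclassical molecule Qa-1 recognised by NK cell receptors, was at 54.6, 55.7 and 52.4 in old and 23.0, 27.4 and 37.5 in young mice, a change of 0.89 ± 0.20 (adjusted p = 0.0492). Of the 16 tested genes of the MHC class I and immunoproteasome list, 12 were above 0 with a median of 0.14. B2m, the light chain of class I molecules, was at 191 to 201 against 154 to 188 and did not pass (change 0.20, adjusted p = 0.947). Tapbp, the peptide loading chaperone, and H2-Q4 also had every old library above every young one, with changes of 0.16 and 0.49. Of 7 MHC class II genes tested, 4 were above 0, with a median of 0.01. H2-DMb1, which edits class II peptides, had the smallest p among them (change 0.34, adjusted p = 0.828).

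Genes outside the interferon response also rose. Tlx2, a homeobox transcription factor known from enteric neurons, was at 82.7, 71.6 and 89.1 in old and 22.7, 28.2 and 33.0 in young mice (change 1.51 ± 0.20, adjusted p = 0.000145). Prom2, a cholesterol-binding protein of membrane protrusions, was at 35.6, 30.7 and 41.8 against 8.25, 13.3 and 9.08 (change 1.74 ± 0.27, adjusted p = 0.000682). Rax, a homeobox factor of the eye field and hypothalamus, was at 12.5, 13.6 and 20.0 against 3.09, 4.70 and 3.30 (change 1.79 ± 0.36, adjusted p = 0.0230). For these 3 genes the groups were far apart. Sytl1, a synaptotagmin-like effector of vesicle transport, was at 20.9 to 34.6 in old and 7.05 to 9.08 in young mice (change 1.60 ± 0.29, adjusted p = 0.00512).

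Pisd-ps1 and Pisd-ps3, pseudogenes of the phosphatidylserine decarboxylase Pisd, share their reads and are 1 signal, though the counts of called genes hold both. They were at 106, 121 and 113 in old and 66.5, 50.1 and 64.0 in young mice. The change was 0.91 ± 0.12 (adjusted p = 5.3e-05), and every old library lay above every young one. Sult1c2, a cytosolic sulfotransferase, was at 92.0 to 105 against 63.5 to 72.2 (change 0.55 ± 0.12, adjusted p = 0.0422). The transcript 1700030C10Rik was at 13.7, 17.2 and 20.1 against 3.27, 3.29 and 4.88 (change 1.91 ± 0.40, adjusted p = 0.0341).

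Among the 5 lower genes, Ccnd2 was the most abundant. Ccnd2 codes for a D-type cyclin that promotes entry into the cell cycle, and it stood at 196, 188 and 181 in old and 263, 276 and 272 in young mice. The libraries of each group lay close together and the groups far apart, and the change of -0.52 ± 0.09 passed (adjusted p = 0.00226). Ndn (necdin), an imprinted growth suppressor expressed from the paternal allele, was at 34.6, 20.5 and 20.0 against 45.4, 47.0 and 53.6. Its change was -0.97 ± 0.19 (adjusted p = 0.0184), and old 19 lay nearest to the young libraries.

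The other lower genes had few reads. Evl, an actin regulator of the Ena/VASP family, was at 9.62, 8.52 and 9.09 in old and 19.6, 22.7 and 26.4 in young mice (change -1.24 ± 0.26, adjusted p = 0.0283). Prrg3, a membrane protein with a vitamin K-dependent Gla domain, was at 4.81, 6.82 and 5.45 against 19.6, 14.9 and 14.0 (change -1.36 ± 0.30, adjusted p = 0.0448). B3galnt1, the glycosyltransferase that makes globoside, was at 3.85, 4.26 and 3.64 against 17.5, 12.5 and 12.4 (change -1.61 ± 0.36, adjusted p = 0.0492). All 3 separated the groups. Cdon, a co-receptor for hedgehog proteins, was next by p and did not pass: it stood at 9.62, 16.2 and 9.09 in old and 20.6, 27.4 and 33.8 in young mice (change -1.18 ± 0.27, adjusted p = 0.0612).

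**Figure D3:**
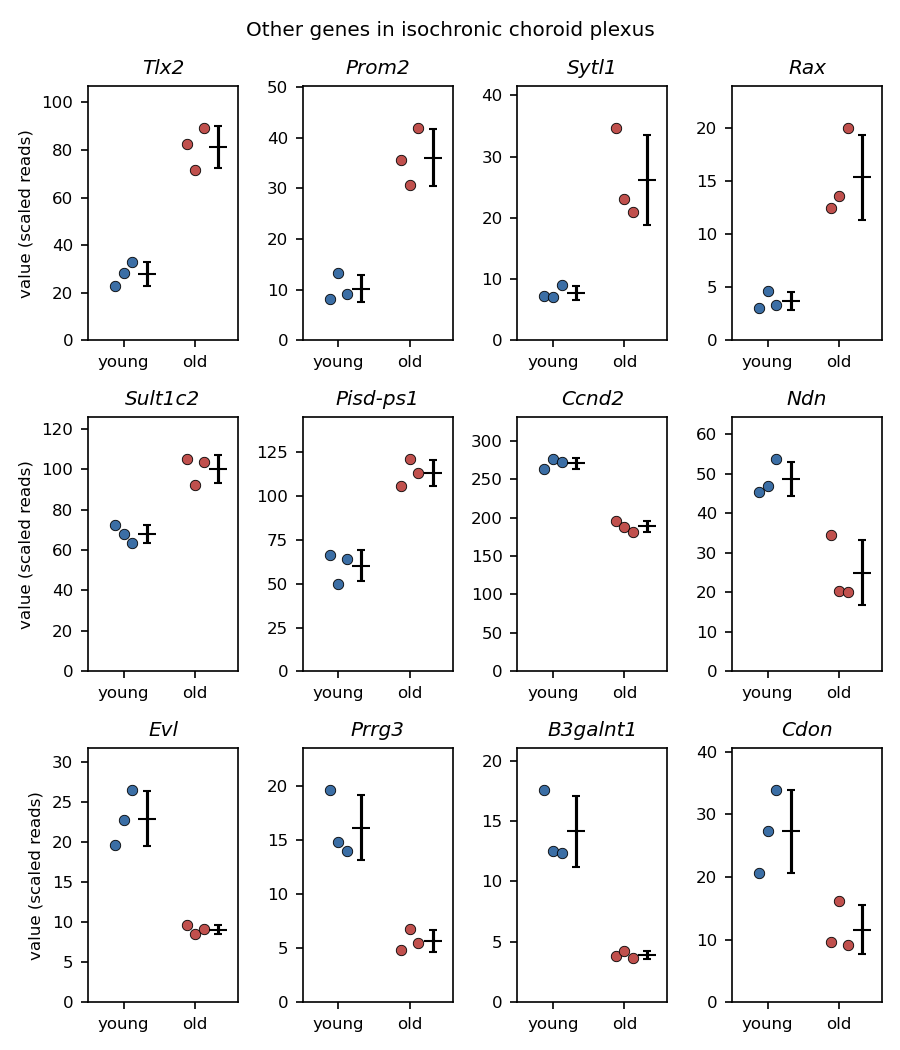
Values (scaled reads, linear axis from 0) are shown for 6 higher genes outside the interferon response, the 5 lower genes and Cdon, with 1 point per library, blue for the 3 young and red for the 3 old isochronic mice, and black bars for the mean ± SD. The groups do not overlap in any panel. Cdon did not pass the test.

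Around Ccnd2 and Ndn the related lists did not move together. Of 14 D cyclins and cell cycle inhibitors tested, Ccnd2 was called and 6 were above 0, with a median of -0.06. Ccnd1 overlapped between the groups (46.0 to 68.2 in old against 36.0 to 49.5 in young mice), and E2f1, a transcription factor of S-phase genes, was at 63.1 to 68.2 against 42.3 to 60.9 (change 0.38, adjusted p = 0.763). Cdkn1a, which codes for p21, was at 55.4 to 62.2 against 55.7 to 70.1, with a change of -0.08 and a 95% interval of -0.57 to 0.41. Cdkn2a, the senescence-associated locus, had 1 read in each old library and 0 in each young one and was below the filter. Of 17 imprinted growth genes 13 were below 0 (median -0.10). The imprinted RNA Meg3 was at 10.6 to 18.2 against 23.1 to 28.9 (change -0.79, adjusted p = 0.510), Nnat, coding for neuronatin, at 11.9 to 16.4 against 20.6 to 23.7, and Dlk1, a Notch ligand relative, overlapped. Several of these genes are also expressed in neurons. The summed neuron markers, which include Meg3 itself, were at 65.6 to 77.2 in old and 75.9 to 153 in young libraries. The part of neurons in the values of these imprinted genes, and in those of Ndn and Evl, was not tested.

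Vascular and matrix genes lay lower in old mice as lists, without a called member, as did neuron and astrocyte markers, given below. All 8 tested markers of pericytes and smooth muscle were below 0 (median -0.45), 5 of them with every old library below every young one, against 4.86% of all genes. Their summed level was 259 to 284 in old and 331 to 384 in young mice. Des (desmin) was at 38.5, 28.1 and 32.7 in old against 54.7, 51.7 and 47.0 in young mice (change -0.62 ± 0.17, adjusted p = 0.248), and Myh11, smooth muscle myosin, at 5.45 to 7.67 against 12.5 to 16.5 (change -1.05, adjusted p = 0.595). Acta2 overlapped, and Pdgfrb, the receptor for platelet-derived growth factor on pericytes, changed by -0.38 without overlap. In bulk tissue, fewer cells of a type and less RNA per cell cannot be told apart.

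Endothelial markers showed the same sign less evenly. Of 12 tested, 9 were below 0 with a median of -0.26, and 6 had every old library below every young one, against 4.86% of all genes. Flt1, a receptor for vascular endothelial growth factor, was at 76.9, 77.6 and 82.7 in old and 98.0, 109 and 102 in young mice (change -0.38 ± 0.11, adjusted p = 0.248). Esam and Cdh5, adhesion proteins of endothelial junctions, changed by -0.67 and -0.52, and the receptor Tie1 by -0.49, each without overlap and without passing. The summed level of the 12 markers was 557 to 573 in old and 637 to 693 in young mice.

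Of 35 collagen and matrix genes 27 were below 0 (median -0.21), 10 with every old library below every young one (4.86% of all genes) and 1 above (5.70%). Col4a2, a chain of basement membrane collagen, was at 20.2, 30.7 and 20.0 in old and 50.5, 38.4 and 42.9 in young mice, a change of -0.89 ± 0.21 that missed the threshold with 11 libraries (adjusted p = 0.0951) and passed without the 2 heterochronic libraries that stand apart (adjusted p = 0.0312). Col15a1, of vascular basement membranes, was at 8.18 to 10.6 against 14.1 to 34.0, Col6a1 at 6.73 to 10.2 against 13.3 to 21.5, and the fibrillar Col3a1 at 1.82 to 7.67 against 12.4 to 15.7. None of these 3 passed the test (adjusted p = 0.410, 0.668 and 0.685). The summed neuron markers given above were higher in young 1 and young 5 than in every old library, and young 3 lay within the old range. Of 7 neuron markers tested 6 were below 0 (median -0.48), and of 8 astrocyte markers 6 (median -0.46), with 0 called in either. The summed astrocyte level overlapped, at 203 to 247 in old and 205 to 256 in young mice. The part of neurons and astrocytes in the vascular and matrix lists was not tested.

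**Figure D4:**
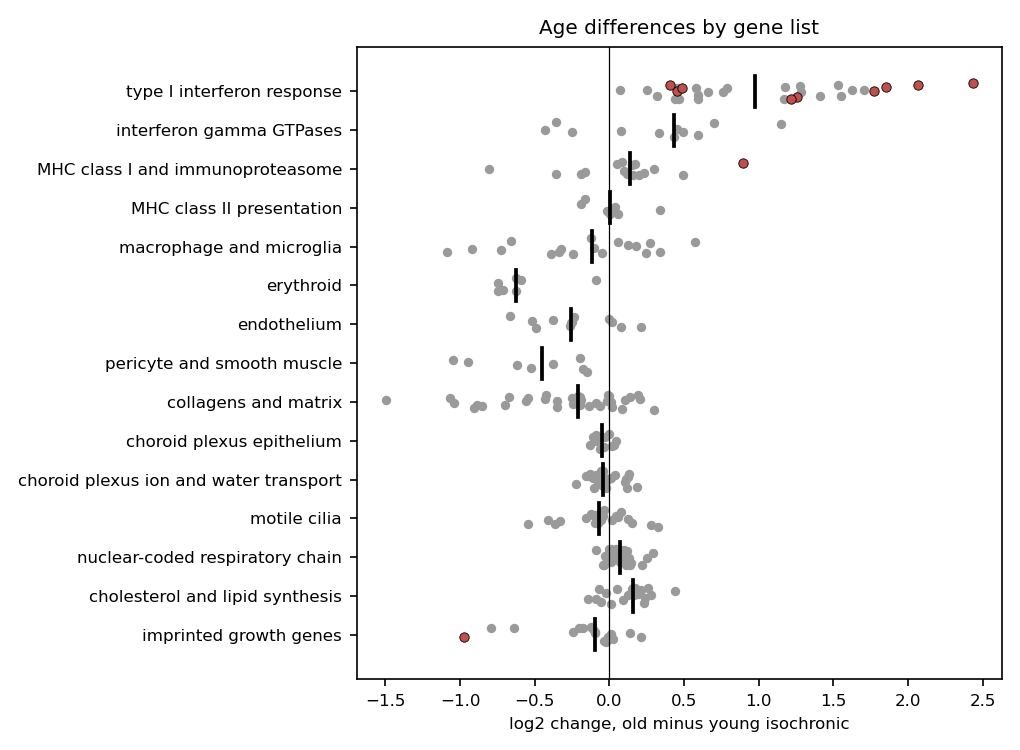
Each point is the log2 change from young to old isochronic mice of 1 tested gene, in rows by gene list, red where the gene was called, and the black bar is the list's median. The type I interferon list has a median of 0.98 and every point above 0, while the pericyte and erythroid lists have every point below 0.

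No blood or leukocyte marker was called in the fit of 11 libraries. All 7 tested erythroid genes were below 0 (median -0.62), among them Hba-a1, an alpha globin gene, at 57.5, 55.8 and 48.6 in old against 63.8, 85.1 and 107 in young mice (change -0.62 ± 0.20, adjusted p = 0.660). Hbb-bs, a beta globin gene, was at 57.7 to 76.0 against 83.0 to 137. Globin copies share reads, the animals had been perfused, and young 5 was highest for both genes. Without the 2 heterochronic libraries that stand apart, 3 erythroid genes were called lower: Hba-a1 (adjusted p = 0.0403), Hba-a2, which shares its reads (0.0409), and Hbb-bs (0.0476). Without young 5 the erythroid median was -0.45. The sign was the opposite in unjoined mice, where 5 of 6 erythroid genes tested were above 0 (median 0.85), with 0 called.

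Of 18 macrophage and microglia genes 7 were above 0 and 11 below (median -0.11, or -0.32 to -0.01 over the scalings and with 1 library left out). Cx3cr1, the fractalkine receptor of macrophages and microglia, was at 34.4, 37.6 and 35.0 in old and 57.9, 65.8 and 48.3 in young mice, without overlap. Its change of -0.66 ± 0.19 did not pass with 11 libraries (adjusted p = 0.263) and passed without the 2 heterochronic libraries that stand apart (adjusted p = 0.0424). Pf4, a chemokine of platelets and some macrophages, was at 3.85 to 9.38 against 13.3 to 19.0 (change -1.09, adjusted p = 0.755), and Cd163 and Cd14 overlapped. The list's summed level was 403 to 422 in old and 419 to 495 in young mice. A shorter list of 8 macrophage markers, all of them also in this list, had 7 below 0 (median -0.29) and 0 called. The summed level of these markers was 183 to 199 in old and 227 to 255 in young mice, without overlap. The part of macrophages in the interferon genes was not tested. Of 5 neutrophil and mast cell genes tested 4 were above 0 (median 0.75), 3 with every old library above every young one, against 5.70% of all genes, and 0 were called. S100a9 was at 20.9 to 29.8 against 9.39 to 18.2 and S100a8 at 15.4 to 23.6 against 9.28 to 11.6, both without overlap and without passing (adjusted p = 0.685 and 0.728). T, NK and B cell genes were mostly below the filter, with 3 of 16 tested.

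Chemokines, adhesion molecules and trophic factors showed no called gene. Ccl2 was at 1.82 to 3.85 in old and 2.35 to 8.25 in young mice, and Cxcl10, an interferon-inducible chemokine, at 0 to 6.82 against 1.03 to 5.78. Ccl17 had 1 read in each old library, and Ccl11, known as eotaxin, was at 0 in 5 of the 6 libraries and at 1 read in young 1. Icam1, which binds leukocyte integrins, was at 32.7 to 36.7 in old and 14.9 to 34.0 in young mice (change 0.43, 95% interval -0.02 to 0.88). Igf1 was at 5.45 to 11.1 against 5.48 to 14.0, and Bdnf was at 0 in all 6 libraries. Few reads limit what could be seen for each of these genes apart from Icam1.

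The epithelium itself showed narrow ranges. Of 12 epithelium markers 3 were above 0 (median -0.05), and of 29 genes of ion and water transport 8 were above 0 (median -0.04), with 0 called in either. Ttr, the carrier of thyroid hormone and retinol, changed by 0.03 with a 95% interval of -0.17 to 0.23. Kl (klotho) changed by -0.08 (-0.25 to 0.10), Apoe, the lipid carrier, by -0.05 (-0.24 to 0.14), Trf (transferrin) by 0.04 (-0.14 to 0.23) and the water channel Aqp1 by -0.09 (-0.29 to 0.11). All 5 overlapped between the groups, and all 5 lie in the compressed range, where a change would appear smaller than it was. The potassium channel subunit Kcne2 was the transport gene with the smallest p, at 246 to 258 in old and 261 to 333 in young mice (adjusted p = 0.957).

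Metabolic lists moved by little. Of 39 nuclear-coded respiratory chain genes 31 were above 0 with a median of 0.07. Cox8b, a subunit of cytochrome oxidase, led them at 171 to 195 in old against 142 to 170 in young mice (change 0.29, adjusted p = 0.534), followed by Atp5k and Ndufb2 with changes of 0.25 and 0.22. Of 20 cholesterol and lipid synthesis genes 15 were above 0 (median 0.15), with 0 called. Of 13 genes of iron handling 6 were above 0 (median 0.00). Tfrc, the transferrin receptor, was at 52.8 to 94.5 against 43.8 to 49.5 (adjusted p = 0.763), and the ferroxidase Cp at 40.4 to 53.7 against 54.7 to 67.3 (adjusted p = 0.947), each without overlap.

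Choroid plexus of unjoined mice of the same ages was fitted in its own table, and no test was made across the tables. There 27 genes were higher (0.267% of 10123) and 4 lower (0.0395%) in aged mice, 0.306% in all. Of the 25 genes called in isochronic parabionts, 19 were tested in unjoined mice, 18 had the same sign and 11 were called, which is 44% of the isochronic calls and 35.5% of the unjoined calls. Each of these counts holds both Pisd-ps1 and Pisd-ps3, which share their reads. Across all 10032 genes tested in both, 52.6% had the same sign and Pearson's r of the changes was 0.19 (Spearman's rho 0.09), as a description across genes, which are not independent.

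Most interferon genes were higher in both tables. Ifit1 changed by 2.43 in isochronic and 2.73 in unjoined mice, Rtp4 by 1.77 and 2.74, Ifi27l2a by 1.26 and 2.02, and Isg15 by 1.63 and 2.93. Usp18 changed by 2.07 in isochronic and 1.03 in unjoined mice and Samd9l by 1.22 and 0.19, and neither passed in unjoined mice (adjusted p = 0.835 and 0.98). The type I interferon list had a median of 0.98 in isochronic and 1.33 in unjoined mice. In unjoined mice 23 of the 25 members tested were above 0 and 11 were called higher, against 0.267% of all genes. Abundant genes had smaller changes in parabionts: Bst2 changed by 0.45 against 1.62, Ifitm3 by 0.49 against 1.46, and Ccnd2 by -0.52 against -1.03. Tlx2, which is not abundant, changed by 1.51 in isochronic and 4.79 in unjoined mice, and Sult1c1, a sulfotransferase called in unjoined mice only, by 0.80 and 4.86. In the young unjoined libraries Tlx2 was at 0, 0 and 0 and Sult1c1 at 0, 1.38 and 0. The size of these 2 unjoined changes therefore depends on the pseudocount of 1 and is not a measured fold change.

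Some genes called in unjoined mice had changes near 0 in isochronic parabionts. Trf changed by 0.92 in unjoined and 0.04 in isochronic mice, and Mdk, the growth factor midkine, by 1.21 and -0.17. H2-Eb1, a class II chain, changed by 1.39 in unjoined and -0.01 in isochronic mice. Its isochronic confidence interval was wide, from -1.10 to 1.07, with old libraries at 50, 77.6 and 39.1. The isochronic value therefore does not show that H2-Eb1 was unchanged. For Mdk the parabiont values were 70.0 to 93.9, below the strongest compression but in a range that is compressed too. Gene classes with medians of 48.1 and 146 in unjoined choroid plexus had medians of 100 and 177 in parabionts. The part of compression in the Mdk change was not tested. The MHC class II list had a median of 1.29 in unjoined and 0.01 in isochronic mice, over 7 genes tested in both. The macrophage and microglia list had a median of 0.60 over 8 genes tested in unjoined mice. In isochronic mice its median was -0.11 over 18 genes, so these 2 medians are not over the same genes. With 1 isochronic library left out, the isochronic class II median ran from -0.14 to 0.11. Sytl1 had the opposite sign, with -0.45 in unjoined mice, and did not pass there (adjusted p = 0.964). The tables differ in RNA kit and scaling as well as in surgery, and these cannot be told apart.

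**Figure D5:**
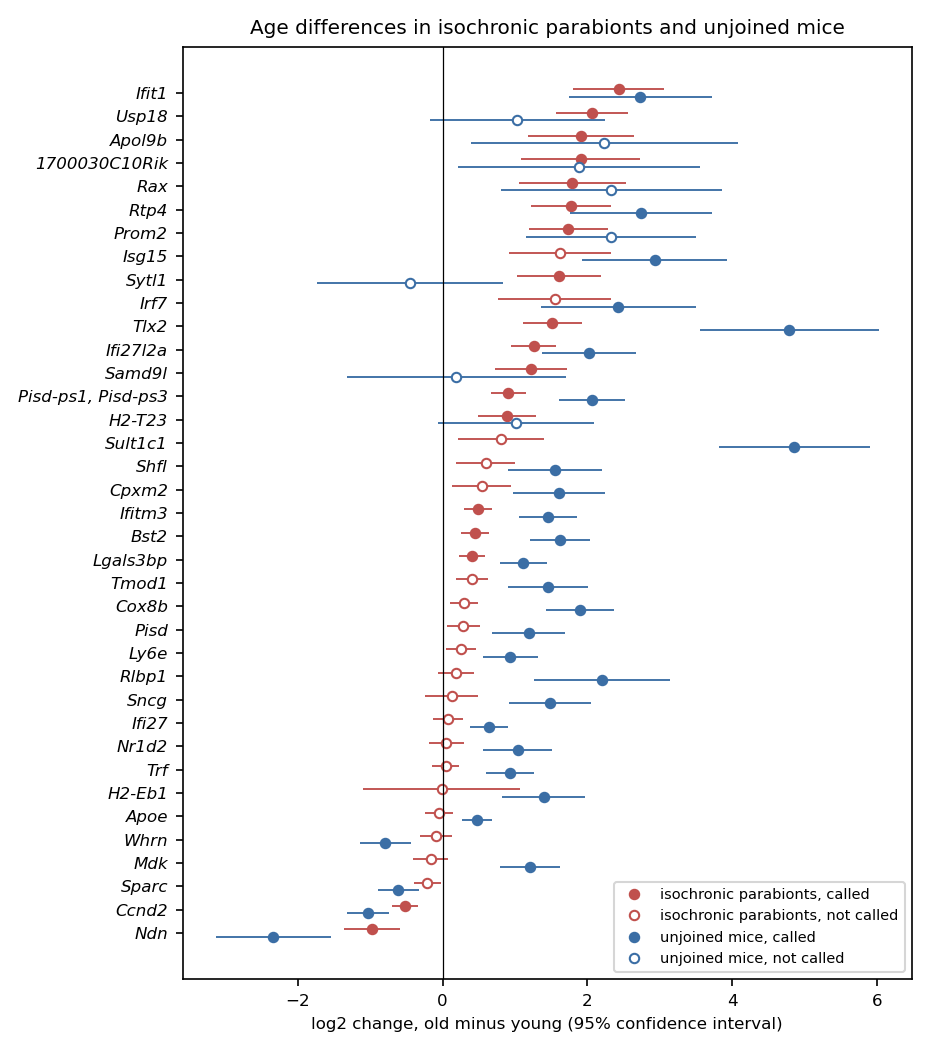
Log2 changes with 95% confidence intervals are shown for each gene called in isochronic parabionts (red) or in unjoined mice (blue) and tested in both, with filled points where the gene was called. For most genes the blue point lies farther from 0 than the red one, and Usp18, Samd9l, Sytl1 and, by a small margin, 1700030C10Rik go the other way.

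The difference between the isochronic and the heterochronic age effect was tested in the same fit. No gene was called (0 of 12991), with 824 at an unadjusted p under 0.05 (6.34%). The smallest p values belonged to Rps10, a ribosomal protein gene, and 1700013F07Rik (adjusted p = 0.388 for both). Rps10 was at 111 to 128 in old and 92.6 to 109 in young isochronic mice, and at 88.1 and 91.9 in old and 117 to 135 in young heterochronic mice. Cx3cr1 followed (adjusted p = 0.396): it was lower in old than in young isochronic mice, and stood at 34.9 and 55.5 in old and 20.5 to 33.7 in young heterochronic mice. Ankrd13d, Alpl, H2-T23, Ahnak, Cadm2, Pim1 and Podxl had an adjusted p of 0.558. For H2-T23 the old libraries lay at 52.4 to 55.7 in isochronic and at 35.6 and 25.6 in heterochronic mice.

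For the genes called in isochronic mice the difference between the 2 age effects did not pass the test, and its intervals were wide. The isochronic effect minus the heterochronic one was 0.10 for Usp18 (95% interval -0.66 to 0.85), -0.31 for Ifit1 (-1.25 to 0.64), 0.06 for Tlx2, -0.10 for Ccnd2 and 0.21 for Ndn. It was larger for H2-T23, at 1.19 (0.58 to 1.79, adjusted p = 0.558), for Ifi27l2a, at 0.60 (0.12 to 1.07, adjusted p = 0.732), and for Sytl1, at 0.99 (0.11 to 1.86, adjusted p = 0.773). The intervals of these genes leave out 0 before adjustment. The difference was 1.05 for Rax (-0.06 to 2.15), -1.18 for 1700030C10Rik (-2.40 to 0.04) and -0.57 for Prom2 (-1.40 to 0.25). Ifit1 was at 98.8 and 42.1 in old and at 7.48 to 10.7 in young heterochronic mice. With 2 old heterochronic libraries these differences are loosely bounded. Leaving either out would leave the old heterochronic group without a spread of its own, so calls from such fits are not given.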

How the data were processed

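RNA was sequenced from choroid plexus of parabionts and of unjoined mice, and purified with the RNA MicroPrep kit or miRNeasy respectively, per the labels' protocols. The submitters' processing notes name TopHat for alignment and the build mm9. The version of TopHat is not given in the sources used here, nor are the counting and scaling steps. The deposited signal was judged from the values: 84.5% to 86.1% of the values above 0 of an isochronic library were whole multiples (within 0.01) of 1 step, the value of 1 read, so whole counts were not recovered and no count model was used. Depth is the sum of a library's values, with 1 transcript per gene, over its step. As high values are compressed, it may differ from the number of reads sequenced. The tissue table has 1 column that matches no listed sample and was not used.

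Of 21781 transcripts 21370 were named by RefSeq accession, 281 by symbol and the rest by synonym or not at all, and the transcript with the highest mean stood for each of 16925 genes. Genes above 4 in at least 3 of 11 libraries were tested in R 4.3.3 by limma 3.58.1 (trend and robust empirical Bayes) on log2(value + 1), the 4 parabiosis groups fitted together. Fold changes on this scale understate the change of low genes. A call is a Benjamini-Hochberg adjusted p under 0.05 over all genes tested. Unjoined choroid plexus was fitted in the same way over its 6 libraries. The script was tested on simulated data. Promoter letters came from RefSeq windows.

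The text names the 12 genes per direction with the largest change among called genes without overlap and with a mean of 10 to 400 (5 by smallest p where fewer pass). Per list it names at most 4 members, those of smallest p, and in the interaction at most 10, and it always names 22 genes of interferon, chemokine, growth factor and epithelial biology. The other called genes, and any other gene, were chosen after their values were seen. Members and lists were chosen with earlier results of these data known. Alternatives were other pseudocounts, filters, scalings and weights, summed transcripts, fewer libraries and leaving out each library. Some list members are not reported here by name.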

Additional observations from a re-analysis of the deposited data

How the results depend on the processing

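The isochronic count was 20 higher and 5 lower genes. A pseudocount of 0.05 gave 13 higher and 3 lower genes, limma without the trend 6 and 3, and the 6 isochronic libraries alone 33 and 11. Limma without the trend kept only 6 of the 25 calls: Usp18, Samd9l, Sytl1, Evl, Prrg3 and B3galnt1. Among the calls lost there were Ifit1, Ifi27l2a, Tlx2, Prom2, Pisd-ps1, Pisd-ps3, Rtp4, Ccnd2 and Ndn. Leaving out both heterochronic libraries that stand apart, chosen after seeing the data, gave 34 and 12. Lower genes numbered 3 with no filter, with the stricter filter above 16, with voom weights and with summed transcripts. With 1 isochronic library left out the counts ran from 8 to 16 higher and from 0 to 2 lower. In the isochronic minus heterochronic test, leaving out any isochronic or young heterochronic library gave 0 calls, and so did the other settings that kept both old heterochronic libraries. Leaving out old heterochronic 29 or 34 leaves 1 library in that group, so calls from such fits are not given. In unjoined choroid plexus, against 27 higher and 4 lower, no filter gave 47 and 10, limma without the trend 4 and 1, and leaving out 1 library 15 to 34 higher and 2 to 4 lower.

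All 25 isochronic calls kept their sign under every setting that tested them, and the 22 tested under the stricter filter did so too. Uncalled genes turned sign. With summed transcripts the change of Igf1 was 0.081, and with voom weights that of H2-Eb1 was 0.0039. With 1 library left out the change ran from -0.14 to 0.028 for Apoe, from -0.15 to 0.011 for Cdkn1a, from -0.66 to 0.68 for Cxcl10, from -0.28 to 0.21 for H2-Eb1, from -0.50 to 0.11 for Igf1, from -0.024 to 0.084 for Trf and from -0.026 to 0.13 for Ttr. Causes were not tested. Isochronic groups share no animal numbers, so a replicate block could be fitted only in unjoined mice, where it gave 36 calls against 31, the mouse number being shared across groups as a label only. Few reads limit Ccl2, Cxcl10, Ccl11, Ccl17, Igf1, Bdnf and Cdkn2a, and compression limits abundant genes.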
